A study of Mus musculus with 14 samples.

Results

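The genes described here encode the proteins of the cytosolic ribosome, taken by symbol: every gene named Rpl, Rps or Rplp followed by a number and at most 1 letter, and Rpsa. The rule found 60 genes among the 19505 genes measured in mouse gastrocnemius muscle, of which 34 were counted in the large subunit, 21 in the small subunit and 5 as paralogues apart (Rpl3l, Rpl10l, Rpl39l, Rps27l and Rps4l). The 34 include Rpl32l, by symbol a relative of Rpl32. Rpl10, Rps27 and Rplp2 were not analysed here. Each of the 60 genes was read by 1 probeset. The mice were male C57BL/6 animals that carried subcutaneous tumours of Panc02 cells, a mouse pancreatic cancer line. The 7 control mice ate the purified AIN-93G diet, and the 7 HMB mice ate the same diet supplemented with HMB, which is β-hydroxy-β-methylbutyrate and arises from the amino acid leucine, from before the tumour cells were injected. Both groups therefore bore tumours, and no muscle of tumour-free mice was in the comparison. The labels mention anti-PD1 treatment of mice of the study without saying whether any of these 14 received it, and, while the tissue is given as gastrocnemius, their account of the RNA extraction refers to tumour samples. Each animal gave 1 array.

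The ribosome is built from a large and a small subunit, each a scaffold of ribosomal RNA covered by proteins. Most of these proteins are made by all cells in matched amounts, and their mRNAs begin with a tract of pyrimidines through which the kinase mTORC1, by way of Larp1 and the 4E-BP proteins, controls their translation. Striated muscle is an exception for a single position. There Rpl3l, a paralogue of Rpl3 made in skeletal muscle and heart, takes the place of Rpl3, which lies close to the site where peptide bonds form. Elongation factor eEF1A has a similar pair, with Eef1a1 in most cells and Eef1a2 in mature muscle and neurons. HMB is often studied as an agent that raises muscle protein synthesis.

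To set the muscle paralogue beside common ribosomal protein genes, the sequences around their annotated starts are shown, from RefSeq on build GRCm38.p6. The promoter table held 47 of the 60 genes. Rpl3 was not among them. For Rpl3l, the 250 bases before the start, at chr17:24727576-24727825 on the plus strand, are given with the E-box letters CANNTG, which myogenic factors can bind, in capitals.
Rpl3l: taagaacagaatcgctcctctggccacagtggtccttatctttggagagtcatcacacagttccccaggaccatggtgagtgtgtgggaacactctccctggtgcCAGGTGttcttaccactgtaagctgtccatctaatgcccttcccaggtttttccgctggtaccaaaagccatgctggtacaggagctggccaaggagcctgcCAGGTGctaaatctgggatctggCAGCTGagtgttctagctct
These letters occurred 3 times before the start of Rpl3l. Over windows of 300 bases (250 before and 50 after the start, both strands) they were present in 48.9% of the 47 ribosomal protein promoters and in 72.1% of 27025 promoters in the table, so that their presence alone sets Rpl3l apart from neither group.

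The letters CCGGAAG, which ETS family factors can bind, were found in 20 of the 47 windows (42.6%) and in 9.1% of all promoters, and CTTTCC in 46.8% and 26.3%. Neither was in the window of Rpl3l. The TATA letters TATAAA were in 10.6% of the ribosomal protein windows and 14.2% of all, and CTAAAAATA, a form of the MEF2 site, in 0% and 0.5%. Motifs were searched on both strands, CANNTG reads the same on both, and a match is a description only.

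The windows of 15 bases on either side of the annotated start are shown for the 4 genes that followed the rest of the family most closely over the arrays, and for Rpl3l, with runs of 6 or more C or T in capitals. They lie at chrX:134585639-134585668 (plus strand), chr2:180257364-180257393 (plus), chr7:3704026-3704055 (plus), chr12:28635939-28635968 (minus) and chr17:24727811-24727840 (plus).
Rpl36a: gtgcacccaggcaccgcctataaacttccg
Rps21: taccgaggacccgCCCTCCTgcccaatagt
Rps9: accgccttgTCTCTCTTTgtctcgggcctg
Rps7: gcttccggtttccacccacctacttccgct
Rpl3l: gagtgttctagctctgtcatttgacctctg
Such a run lay within 2 bases of the annotated start in 16 of the 47 ribosomal protein genes (34%) and in 14.4% of all promoters. Rps21 and Rps9 had one, and Rpl36a, Rps7 and Rpl3l had none. Annotated starts can lie a few bases from those used in muscle. The 16 genes with a run had a median correlation of 0.69 with the rest of the family and the 31 without one 0.75.

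The values were probeset signals on a log2 scale, and differences are given in log2 units. The level below which a probeset cannot be told from background was read from 5222 intron controls, whose 95th percentile was 10.53 to 10.87 on the 14 arrays. Of the 60 genes, 54 lay above it on all arrays. Rpl27 did so on 11 and Rpl32l on 8. Rpl10l, Rpl39l, Rps4l and Rps19 did so on none, so that no change in them can be read as a change of expression. Rpl10l and Rpl39l are paralogues known for expression in testis, while Rps19, a small subunit protein of all ribosomes mutated in Diamond-Blackfan anaemia, had 9.54 to 10.67 here. The tissue matched its label: all 10 markers of fast skeletal muscle lay above background on every array, with list means of 18.05 to 18.41, and 3 of 3 cardiac markers lay below it on every array. The mean over the B cell markers was 10.75 on the array of control 7 and 3.22 to 4.03 on the other 13, that over the T cell markers was 9.96 against 5.08 to 5.96, and that over the adipocyte markers 13.84 against 8.26 to 12.36. Values without control 7 are given beside the differences that it moved most. The lymphocyte marker level used below as a covariate is the mean over the B and T cell markers. It mainly sets control 7 apart from the other 13 arrays, so values with it are no separate check beside those without control 7.

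Ribosomal protein genes had nearly the same level in muscle of HMB and control mice. On the mean over all 60 genes, the control arrays had 14.07 ± 0.15 (SD, n = 7) and the HMB arrays 14.07 ± 0.09 (SD, n = 7). None of the 60 genes passed the test at a Benjamini-Hochberg adjusted p of 0.05 over all genes (limma), where 0 of 19505 genes passed (0%). At an unadjusted p under 0.05 the counts were 0 of 60 ribosomal protein genes and 885 of 19505 genes (4.54%). The smallest unadjusted limma p in the family was 0.0812, for Rpl10l, which lay below background. The mean was higher in HMB for 35 genes (58.3%) and lower for 25, where 51.7% of all genes were higher. Of the 4604 genes above background on at least 7 arrays, 60.7% were higher. The median difference of the family was 0.01 log2 units, which is the median of all genes as well, and that of those 4604 genes was 0.03. When each array was centred on the median of its genes, the split was 49 higher and 11 lower, and the median of all genes then lay at 0.08. Without control 4 it was 25 higher and 35 lower, and without control 7 it was 43 and 17. The groups overlapped in all 60 genes, which is a description only, given without a count over all genes.

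The differences were small as well as not significant. Of the 60 genes, 58 had a mean difference of less than 0.2 log2 units in size, which held for 61.4% of all genes and for 83.2% of the 4604 genes above background on at least 7 arrays. Of the 56 ribosomal protein genes above background in that way, 51 had a 95% interval of the difference that lay entirely within 0.5 of 0, and 23 had one within 0.3. The exceptions to the wider bound were Rpl3, Rpl35a, Rps26, Rps27l and Rps7. Rpl3 had the widest interval of the 56, from -1.20 to 0.34.

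**Figure D1:**
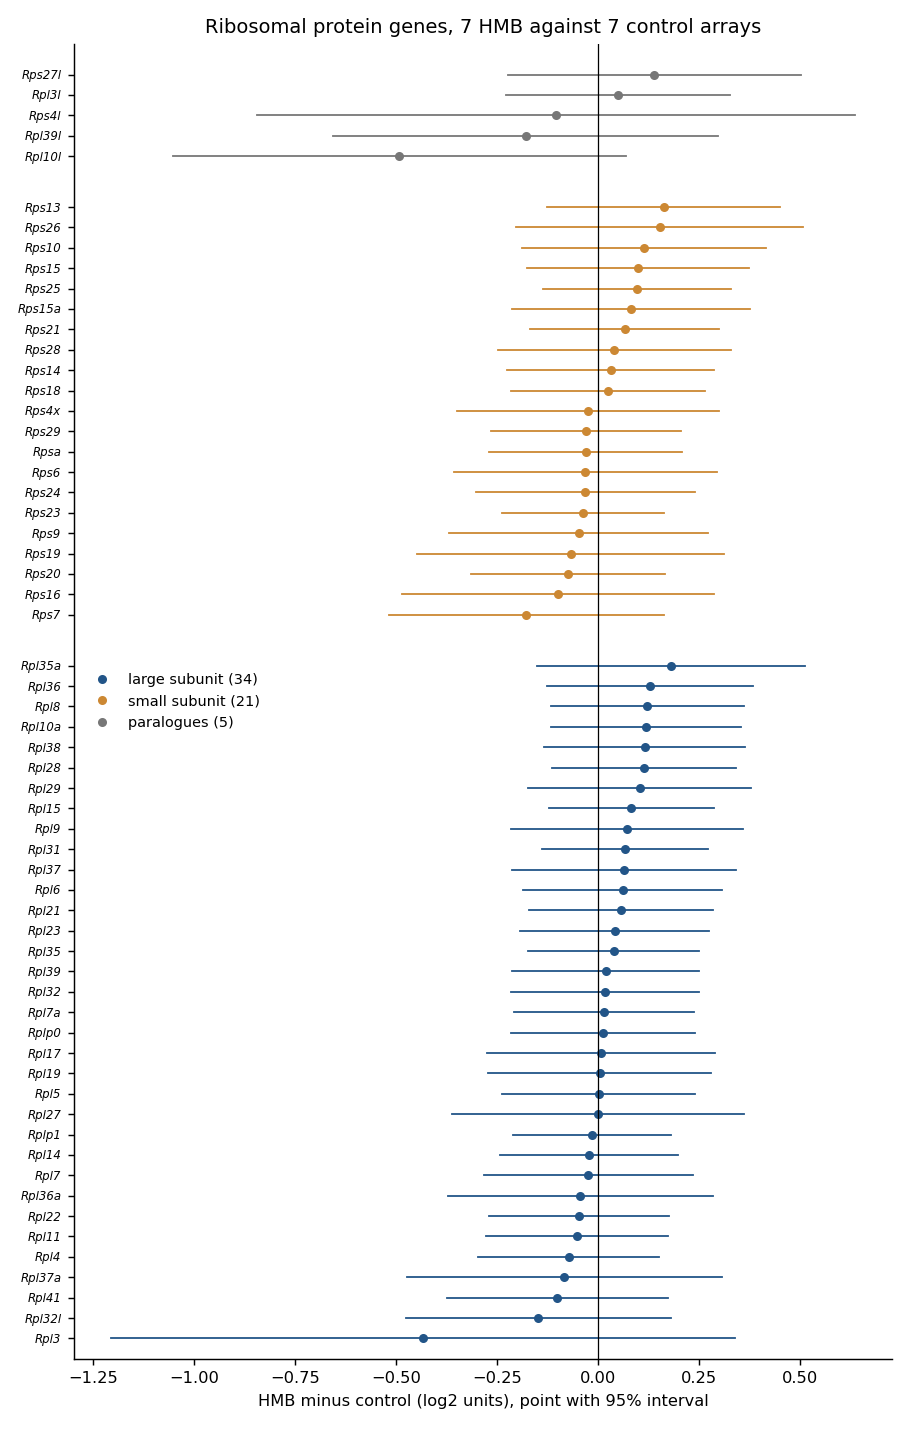
Difference in mean log2 value, HMB minus control, for the 60 ribosomal protein genes (points) with the 95% interval from limma (lines), 7 arrays per group, with the large subunit below, the small subunit above it and the 5 paralogues on top. Every interval crosses 0, and Rpl3 at the bottom stands out from the other large subunit genes by its difference of -0.43 and its wide interval.

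The large subunit was compared beside the small one. The mean over the 34 large subunit genes was 14.69 ± 0.14 in control and 14.70 ± 0.09 in HMB (SD, n = 7 each). Of these, 23 genes had a higher and 11 a lower mean in HMB, with a median difference of 0.02. Of all 4604 genes above background on at least 7 arrays, 60.7% had a higher mean. Without Rpl32l, the other 33 genes had 14.808 ± 0.144 and 14.825 ± 0.091 (SD, n = 7 each), with 23 higher and 10 lower. The mean over the 21 small subunit genes was 14.44 ± 0.21 in control and 14.45 ± 0.11 in HMB (SD, n = 7 each), with 10 higher, 11 lower and a median of -0.02. Without control 7 the difference of the small subunit mean went from 0.01 to 0.07 and that of the large from 0.01 to 0.04, and after renewed quantile normalisation both lay below 0, at -0.02 and -0.01. The distance from the small to the large subunit mean was 0.25 ± 0.09 in control and 0.25 ± 0.04 in HMB. It was 0.21 to 0.35 on 13 arrays. On control 7, where the small subunit mean was the highest of all arrays, it was 0.06. The mean levels of the lymphocyte and adipocyte markers were highest on that array too, and their part in this was not tested.

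In the large subunit, the 4 genes of smallest p with a higher mean in HMB were Rpl35a, Rpl8, Rpl36 and Rpl10a, with differences of 0.18, 0.12, 0.13 and 0.12 (limma adjusted p = 0.99 for each). That of Rpl36 was 0.06 without control 7. Rpl35a had 11.36 to 12.10 in control (median 11.78) and 11.39 to 12.24 in HMB (median 11.997). It lay above the control mean on 6 of 7 HMB arrays. Rpl8, a core protein beside the peptidyl transferase centre, had 14.72 to 15.12 in control and 14.76 to 15.20 in HMB, and was also above the control mean on 6 of 7. Among the genes with a lower mean, Rpl3 is described below, and Rpl32l had 10.33 to 10.98 in control and 10.03 to 10.86 in HMB (difference -0.15), close to background.

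The small subunit genes of smallest p with a higher mean were Rps13, Rps26 and Rps25 (0.16, 0.15 and 0.10) and the paralogue Rps27l (0.14), and those with a lower mean were Rps7, Rps20, Rps16 and Rps23 (-0.18, -0.07, -0.10 and -0.04). The limma adjusted p was 0.99 or more for each. Without control 7, Rps7 had -0.08, Rps20 -0.02, Rps23 -0.015 and Rps16, with the sign turned, 0.04. Without control 4, Rps26 had 0.05. Rps13 had 13.47 to 14.23 in control (median 13.83) and 13.70 to 14.25 in HMB (median 14.01). Rps7, a protein of the small subunit that also binds Mdm2, had 15.26 to 16.13 in control (median 15.55) and 14.94 to 15.66 in HMB (median 15.49), with the highest control value on control 7 and the lowest HMB value on HMB 3.

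Rps6, the protein of the small subunit that S6 kinases phosphorylate downstream of mTORC1, had 16.38, 16.40, 16.79, 16.14, 16.33, 16.95 and 16.68 on control arrays 1 to 7, and 16.61, 16.40, 16.26, 16.95, 16.39, 16.53 and 16.31 on HMB arrays 1 to 7. The highest control (6) and the highest HMB array (4) were equal to 2 decimals. The difference was -0.03, with a 95% interval of -0.35 to 0.29 (limma adjusted p = 0.996, n = 7 and 7). An mRNA array does not measure its phosphorylation.

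Of the stalk proteins, which recruit the elongation factors to the large subunit, Rplp1 and Rplp0 were analysed. Rplp1 had 16.03 to 16.26 in control and 16.03 to 16.17 in HMB, and its SD within groups of 0.06 was the lowest of the 56 genes above background. Rplp0, the base of the stalk, had 15.01 to 15.45 in control and 15.01 to 15.39 in HMB. Its SD within groups was 0.13, where the median of the 56 genes was 0.17. Their differences were -0.01 and 0.01.

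Rpl5 and Rpl11 form a particle with the 5S ribosomal RNA that, outside the ribosome, binds Mdm2 and stabilises p53. Rpl5 had 15.12 to 15.28 on control arrays 1 to 6, 15.70 on control 7, and 15.13 to 15.40 on the HMB arrays (difference 0.00, or 0.07 without control 7). Rpl11 had 15.72 to 15.98 in control, 15.75 to 15.90 on 6 HMB arrays and 15.46 on HMB 3 (difference -0.05, or -0.02 without control 7). Each thus had a single array apart from its group.

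Among the paralogues outside Rpl3l, Rps27l, a p53-responsive relative of Rps27, was well above background, with 11.34 to 12.26 in control (median 11.99) and 11.67 to 12.65 in HMB (median 12.09). Its lowest value was on control 7 and its highest on HMB 1, and its difference of 0.14 had a 95% interval of -0.22 to 0.50. Without control 7 the difference was 0.04, and without HMB 1 it was 0.05. Rps4l had 4.63 to 6.83 in control and 4.54 to 6.29 in HMB, below background, while the X-linked Rps4x, its counterpart, had 12.86 to 13.75 in control and 12.94 to 13.58 in HMB (difference -0.02, or 0.06 without control 7). Rpl39l had 2.91 to 3.97 in control and 2.74 to 4.22 in HMB, and Rpl39, a small protein of the exit tunnel, 12.08 to 12.54 and 12.14 to 12.43 (difference 0.02). Rpl10l had 4.58 to 6.69 in control and 4.71 to 5.79 in HMB.

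Over the 14 animals of both diets pooled, most ribosomal protein genes moved together. Co-variation of the whole family within each diet was not computed. Deviations from the group mean were taken on the 14 arrays for each gene and set against the mean of all the other genes of the family. The median correlation was 0.69, and 41 of the 60 genes had r over 0.5. Of the other genes above background, 7.5% had r over 0.5 with the family mean, and their median was -0.13. The genes that followed most closely were Rpl36a (r = 0.96), Rps21 (0.94), Rps9 and Rps7 (both 0.91) and Rpl37 (0.91). Those that did not were Rpl39l (-0.29), Rps27l (-0.24), Rpl36 (-0.19), Rpl10l (-0.14), Rpl3l (0.03) and Rpl14 (0.06). All genes share the arrays and their normalisation, so these values are given without p. Without control 7 the median was 0.68 with 44 genes over 0.5, and Rpl3l had r = 0.54. Leaving out controls 4 and 7 and HMB 4 gave a median of 0.57 with 37 genes. With each array centred on its median it was 0.56 with 34 genes. Of the other genes above background, 12.1% then had r over 0.5, and their median was 0.21.

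The arrays on which the family stood high or low can be named. Rpl36a had 14.09, 14.38, 14.45, 13.89, 14.08, 14.60 and 14.85 on control arrays 1 to 7, and 14.51, 14.28, 14.01, 14.47, 14.21, 14.34 and 14.22 on HMB arrays 1 to 7, with control 7 highest and control 4 lowest. Over the 60 genes, control 7 had the highest value for 28, and control 4 the lowest for 33. On control 4, 3 genes lay above their own 14-array median, while on control 3, 6 and 7 there were 44, 49 and 48. In the HMB group the counts were 41, 36, 12, 46, 32, 47 and 17 on arrays 1 to 7. After median centring, 18 genes lay above their median on HMB 4, 25 on control 7 and 12 on control 3, while control 4 stayed low with 9. After renewed quantile normalisation, the counts for these 4 arrays were 45, 49, 46 and 4.

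**Figure D2:**
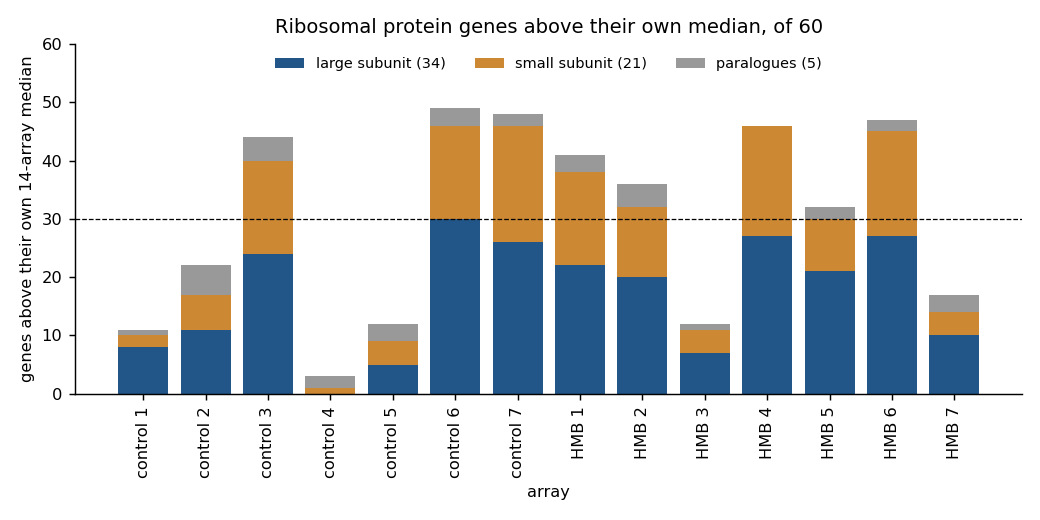
Number of the 60 ribosomal protein genes that lay above their own 14-array median on each array, stacked by large subunit, small subunit and paralogues, with a dashed line at 30 genes. Control 4 has 3 genes above and control 6 has 49, and both diets hold arrays above and below the line.

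**Figure D3:**
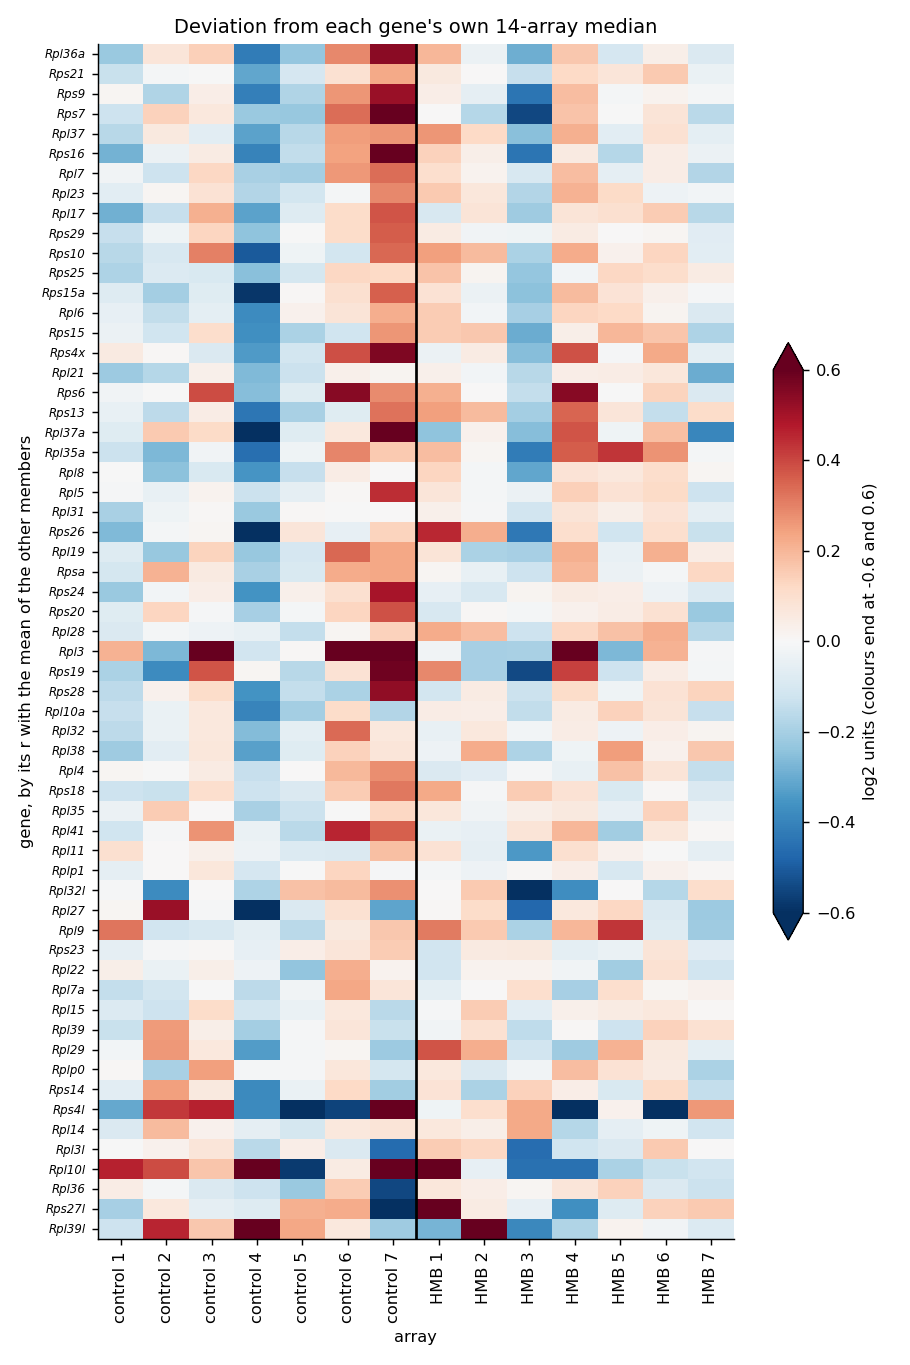
Deviation of each gene (rows, ordered by r with the mean of the other members) from its own 14-array median on each array (columns, control left and HMB right of the black line), in log2 units, with colours that end at -0.6 and 0.6. The upper rows are blue on control 4 and HMB 3 and red on control 7. Rpl3l, near the bottom, is low on each of these arrays, at -0.16, -0.46 and -0.46. It thus departs from the upper rows on control 7.

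For most of the 60 genes the control arrays differed more among themselves. The SD was larger in control than in HMB for 48 of the 60 genes, and for 57.9% of all genes. Without control 7, these were 39 of 60 and 47.5%, so over all genes the larger spread in control was not seen without that array. The 60 genes moved together over the arrays, so the counts do not stand for separate observations.

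Outside the family, the genes above background whose deviations were most like the family mean were Dnajc9 (r = 0.91), Ppia (0.90), Tmsb10 (0.90), Hnrnpab (0.89) and Mir692-3 (0.85), and the least like were Osgepl1 (-0.87), Pex19 (-0.86) and Emc7 (-0.85). Ppia is cyclophilin A, an abundant prolyl isomerase, and Tmsb10 binds actin monomers. Ppia had 14.22 to 15.46 over the 14 arrays, lowest on control 4 and highest on control 7. Centring changed this likeness. On centred arrays r was 0.66 for Dnajc9, 0.45 for Ppia, 0.28 for Tmsb10 and -0.12 for Osgepl1.

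Rpl3l, the muscle paralogue, had 14.97, 14.995, 15.04, 14.81, 15.01, 14.88 and 14.51 on control arrays 1 to 7, and 15.12, 15.09, 14.51, 14.85, 14.88, 15.13 and 14.97 on HMB arrays 1 to 7. It was lowest on control 7 and HMB 3, and the other 12 arrays lay within 14.81 and 15.13. The difference was 0.05, with a 95% interval of -0.23 to 0.33 (limma adjusted p = 0.996), and 4 of the 7 HMB values exceeded the mean of the controls. Without control 7 the sign turned, to -0.01. With the lymphocyte marker level as a covariate, which mainly marks that same array, the difference was -0.02.

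Rpl3, the common paralogue, had 12.09, 11.61, 12.88, 11.76, 11.89, 13.02 and 13.92 on control arrays 1 to 7, and 11.86, 11.68, 11.69, 13.35, 11.61, 12.09 and 11.87 on HMB arrays 1 to 7. Controls 3, 6 and 7 and HMB 4 lay at 12.88 or more, and the other 10 arrays at 12.09 or less. The difference was -0.43 with a 95% interval of -1.20 to 0.34 (limma adjusted p = 0.99, n = 7 and 7). Without control 7 it was -0.19, and without HMB 4 it was -0.65. It was -0.17 with the lymphocyte marker level, which mainly marks control 7, as a covariate. The SD within groups was 0.74, the largest of the family, where the next gene above background, Rpl37a, had 0.34, and 2.54% of the 4604 genes above background had a larger one. Without control 7 it was 0.60, and without control 7, control 4 and HMB 4 it was 0.435, still above every other such gene of the family.

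**Figure D4:**
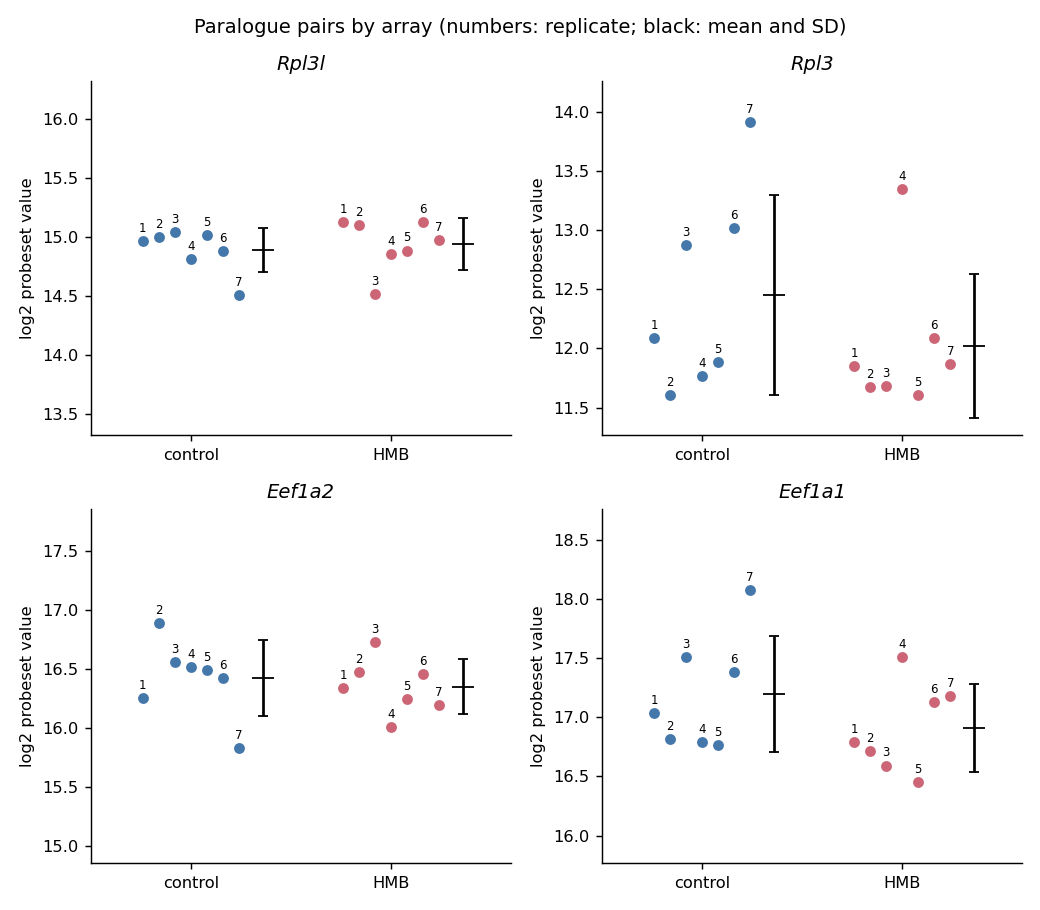
Log2 values of Rpl3l and Rpl3 (upper panels) and of Eef1a2 and Eef1a1 (lower panels) on 7 control and 7 HMB arrays, numbered by replicate, with the group mean and SD in black. Each axis spans the same number of log2 units. Rpl3 and Eef1a1 are highest on control 7 and, among the HMB arrays, on HMB 4, while Rpl3l stays between 14.51 and 15.13.

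The distance from Rpl3 to Rpl3l on each array was taken as a measure that does not depend on the level of the whole array. It was 2.88, 3.39, 2.16, 3.05, 3.13, 1.86 and 0.59 on control arrays 1 to 7, and 3.27, 3.42, 2.83, 1.5, 3.27, 3.04 and 3.10 on HMB arrays 1 to 7. Its mean was 2.43 ± 0.98 in control and 2.92 ± 0.65 in HMB (SD, n = 7 each), with a difference of 0.48 (two-sided exact permutation test over 3432 splits, p = 0.328, smallest possible p 0.000583). The distance was at most 2.16 on controls 3, 6 and 7 and on HMB 4 and at least 2.83 on the other 10 arrays. Without control 7 the difference was 0.18, and without HMB 4 it was 0.72. It was 0.15 with the lymphocyte marker level, which mainly marks control 7, as a covariate. The distance compares arrays with each other and does not say how much of each mRNA was present.

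Neither relation of Rpl3l over the arrays, with Rpl3 or with the family, passed a test. Over 14 arrays, Rpl3l and Rpl3 had Pearson r = -0.39 and Spearman rho = -0.22 (permutation p = 0.161 and 0.446, adjusted over 2 relations 0.322 and 0.638). Without control 7 and HMB 4, the arrays farthest from the median of Rpl3, r was 0.14, so that the sign of the first value rests on those arrays. Within control r was -0.67 and within HMB -0.03. Rpl3l and the mean of all the other genes of the family had r = 0.03 and rho = 0.14 (permutation p = 0.912 and 0.638, adjusted 0.912 and 0.638). Without controls 4 and 7 r was 0.49, within control it was -0.47 and within HMB 0.78. Control 7 had both the highest family mean and the lowest Rpl3l. Over deviations from the group means, r was 0.03 on all 14 arrays and 0.54 without control 7. No value within control was taken without that array, and the difference in sign between the groups was not tested.

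The genes above background most like Rpl3l over the 14 deviations were Phf5a (r = 0.92), Tmtc1 (0.90), Smim20 (0.89), Mlf2 (0.88) and Chchd1 (0.88), and the least like were Nsd1 (-0.87), Dctn5 (-0.83) and Ctnnbl1 (-0.82). Phf5a is a subunit of the splicing factor SF3b, Smim20 and Chchd1 are mitochondrial proteins, and Nsd1 is a histone methyltransferase. Phf5a was lowest on control 7 (11.90) and HMB 3 (11.91), the arrays on which Rpl3l was lowest. Without control 7, r was 0.89 for Phf5a, 0.85 for Tmtc1 and -0.83 for Nsd1, and with arrays centred on their median it was 0.95, 0.91 and -0.62.

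Rpl3 was followed by Eef1a1, the form of eEF1A in most cells. Eef1a1 had 17.03, 16.82, 17.51, 16.80, 16.77, 17.38 and 18.08 on control arrays 1 to 7, and 16.80, 16.72, 16.59, 17.51, 16.45, 17.13 and 17.18 on HMB arrays 1 to 7. The 4 arrays with the highest Rpl3 were also the 4 with the highest Eef1a1. The correlation of the deviations was 0.93, the third highest among genes above background, behind H3f3b and S100a11 (both 0.95, rounded), and it was 0.83 without controls 4 and 7 and HMB 4. Eef1a2, the muscle form, had 15.83 to 16.89 in control and 16.01 to 16.73 in HMB, lowest on control 7 and HMB 4 within their groups, and its r with Rpl3 was -0.72, or -0.30 without those 3 arrays. The differences between diets were -0.29 for Eef1a1 and -0.07 for Eef1a2 (limma adjusted p = 0.99 and 0.996), and without control 7 they were -0.14 and -0.17. The genes set against Rpl3 were chosen after its values had been seen.

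**Figure D5:**
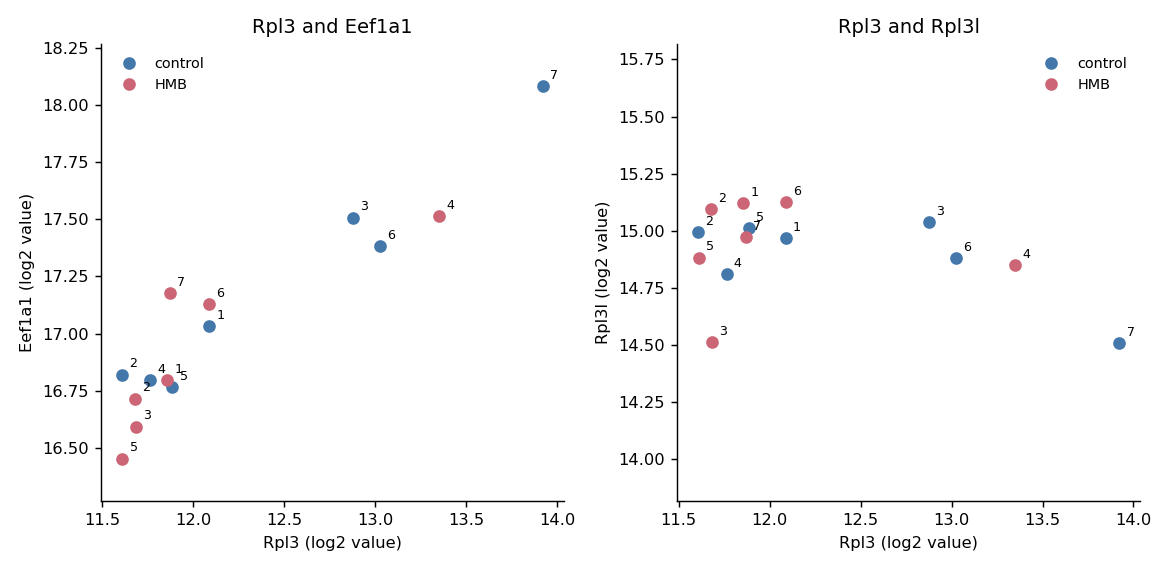
Log2 value of Rpl3 on each of 14 arrays (x axis) against that of Eef1a1 (left) and Rpl3l (right), with control arrays in blue and HMB arrays in red, numbered by replicate. Control 7, HMB 4 and controls 6 and 3 hold the 4 highest values of both Rpl3 and Eef1a1, while Rpl3l has no such order.

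Further genes close to Rpl3 were Pdia3 (r = 0.93), a chaperone of the endoplasmic reticulum, Cfl1 (0.93), an actin-severing protein, Apoe (0.93) and Lyz2 (0.92), lysozyme of macrophages. Those most opposed were Zcrb1 (-0.94), Mrpl15 (-0.94), a mitochondrial ribosomal protein, and Tsc1 (-0.93), an inhibitor of mTORC1. Lyz2 had 13.86 on control 7, 13.50 on HMB 4, 13.28 on control 3 and 13.06 on control 6, and 11.05 to 12.95 on the other 10 arrays. The mean over 9 measured macrophage markers was 8.48 to 9.63 in control and 8.05 to 10.14 in HMB. Its highest values were on HMB 4 (10.14), control 3 (9.63) and control 6 (9.51), while control 7 had 9.12. Of these markers, Lyz2 alone lay above background on all arrays, 6 lay below it on every array, and Adgre1, a defining one, was among the latter with 6.39 to 8.58. The part of macrophages in the values of Rpl3 was not tested, and in whole muscle fewer cells of a type and less RNA per cell cannot be told apart. The slow fibre markers had their highest mean on HMB 4 (16.18, against 7.23 to 14.65 on the other 13 arrays). With their level as a covariate, the difference of Rpl3 between diets was -0.48 (limma adjusted p = 0.95). Their part in the values of Rpl3 on single arrays was not tested.

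Rpl3 itself followed the rest of the family with r = 0.69, but after median centring of the arrays this was -0.23, so that its place in the family pattern depends on the scaling. Its likeness to Eef1a1 did not, with r = 0.90 after centring.

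Genes that make, feed and control the ribosome were set beside the family. Of ribosomal protein genes that the symbol rule leaves out, 5 were measured: Fau, Rpl36al, Rpl7l1, Rpl22l1 and Rps27rt. None passed the limma test and none had an unadjusted p under 0.05, with 4 higher and 1 lower means and a median difference of 0.17. Rps27rt had 10.59 to 11.43 in control and 10.84 to 11.63 in HMB. None of the 8 elongation factor genes passed either test. Eif5a2 lay below background.

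Of 28 initiation factor genes none passed after adjustment, and 1 (3.6% of the list, against 4.54% of all genes) had an unadjusted limma p under 0.05, Eif2b5, the catalytic subunit of the exchange factor eIF2B. It had 7.84 to 9.16 in control and 8.52 to 9.22 in HMB and lay below background on all arrays. Of 9 genes around S6 kinases, 4E-BP proteins and Larp1 none passed after adjustment, and 1 of 9, where 4.54% of all genes did so, had an unadjusted p under 0.05, Rptor, the scaffold of mTORC1. Rptor lay close to background, below it on control 2, with 10.74 to 11.05 in control and 10.93 to 11.24 in HMB. Its difference was 0.26 (unadjusted p = 0.0255, limma adjusted p = 0.99), and the groups overlapped.

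Of 65 genes of RNA polymerase I and ribosome assembly none passed after adjustment. At an unadjusted p under 0.05, 3 had a higher and 2 a lower mean in HMB, which is 7.7% of the list against 4.54% of all genes. Imp3, a protein of the small subunit processome, had 10.66 to 11.40 in control and 11.03 to 11.73 in HMB, below background on control 7, and its groups overlapped. Efl1, a GTPase that helps release a late assembly factor from the large subunit, had 9.91 to 10.36 in control and 9.46 to 10.08 in HMB, and Gar1, of the pseudouridylation complex, 9.92 to 10.78 and 9.26 to 10.06. Efl1 lay below background on all arrays and Gar1 on 13 of 14.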

How the data were processed

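Gastrocnemius RNA of 14 mice (7 control, 7 HMB by title) was hybridised to Affymetrix Clariom S mouse arrays. The authors deposited 1 value per probeset and array. These deposited values were read as log2, a scale inferred from their range. The background correction, summarisation and normalisation behind them were steps not given in the sources used here. The highest values exceed what a scanner gives on that scale, so differences are left in log2 units, without folds. Of 22206 gene probesets, 19572 had 1 symbol in the platform annotation and gave 19505 genes. HMB was compared with control in limma 3.58.1 (R 4.3.3, lmFit and eBayes, two-sided), with p adjusted by Benjamini-Hochberg over all genes at 0.05. The fit was tested on simulated data, in which small planted differences were mostly missed. A lack of genes past the threshold therefore does not show that small differences were absent. Exact permutation and correlation tests used Python. The members and lists were chosen with earlier results of these data known. Genes named singly are Rpl3l, Rpl3, the other paralogues and their counterparts, the stalk and 5S genes, Rps6, the 4 genes of smallest p in each direction and subunit, those below background on every array, and those most and least like Rpl3l, the family or, chosen later, Rpl3. Of each pathway list up to 3 genes of smallest p were considered. Markers of other cell types were read as list means. Keratinocyte markers lay below background on every array (list means 3.23 to 4.50). Schwann cell markers had list means of 9.23 to 9.75 in control and 7.42 to 9.35 in HMB. Of the 4 measured, 2 lay below background on every array. Their part in the values of the ribosomal protein genes was not tested. The number of animals limits the precision. Ribosomal protein genes have many pseudogene copies, and whether the probesets tell these apart was not examined. The settings tried for the co-variation of the genes, and the motifs, were chosen after seeing the data. Alternatives covered scaling, filtering, the variance prior, array weights, covariates, the methods' t-test in place of limma, and leaving out each array.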

Additional observations from a re-analysis of the deposited data

Results flagged for a closer look

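Of 60 groups of values examined (each gene or measure named singly, in each diet), 7 held an array that stood apart from the other 6 of its group by Dixon's criterion, which chance meets in about 1 of 20 groups. Rpl3 was 13.35 on HMB 4, where the other HMB arrays had 11.61 to 12.09, and the distance from Rpl3 to Rpl3l was 1.5 on that array and 2.83 to 3.42 on the others. Rpl5 was 15.70 on control 7, where the other controls had 15.12 to 15.28. Rpl11 was 15.46 and Rpl8 was 14.76 on HMB 3, where the other HMB arrays had 15.75 to 15.90 and 15.06 to 15.20. Rpl10l was 5.79 on HMB 1 and Rpl39l was 4.22 on HMB 2, both below background.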

How the results depend on the processing

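None of the 60 ribosomal protein genes, and none of all genes, passed the adjusted threshold under any of the other settings or with any 1 array left out. The methods' t-test gave 0 genes after Benjamini-Hochberg adjustment and 853 at an unadjusted p under 0.05, of which 0 were ribosomal protein genes. Of 368 alternative values of 32 results, 26 changed sign, 23 of them differences of single genes, each with a limma adjusted p of at least 0.96. The other 3 were the family (-0.0197), large subunit (-0.0107) and small subunit (-0.0166) means after renewed quantile normalisation, which moved by less than the spread between replicates. Among single genes, the values after renewed quantile normalisation were Rps4l (0.0035), Rplp0 (-0.0182) and Rpl5 (-0.0272). After median centring they were Rps4x (0.0476), Rplp1 (0.0575), Rpl11 (0.0205), Rps6 (0.0407), Rps23 (0.0345) and Rps19 (0.0043). With array weights they were Rps4l (0.1246), Rps4x (0.0155), Rplp0 (-0.0222) and Rps16 (0.0113). Without control 7 and HMB 4 they were Rps4l (0.2611), Rps4x (0.0021), Rplp0 (-0.0342) and Rps16 (0.0251). With the lymphocyte marker level as a covariate they were Rpl3l (-0.021), Rps4l (0.0676), Rps4x (0.0631), Rplp0 (-0.0074), Rps16 (0.0497) and Rps19 (0.0215).

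With single arrays left out, 47 of 448 values changed sign, 30 of single genes and 17 of the set means. The ranges were -0.013 to 0.1207 for Rpl3l, -0.3138 to 0.1058 for Rps4l, -0.0113 to 0.065 for Rpl39, -0.0908 to 0.0587 for Rps4x, -0.0198 to 0.0532 for Rplp0, -0.0311 to 0.0075 for Rplp1, -0.0254 to 0.0705 for Rpl5, -0.0722 to 0.0011 for Rpl11, -0.1059 to 0.0402 for Rps6, -0.1723 to 0.0434 for Rps16 and -0.1383 to 0.0233 for Rps19. That for Rpl3 was -0.65 to -0.19, and for the distance from Rpl3 to Rpl3l 0.18 to 0.72. Over all alternatives of the distance, the exact permutation p was 0.102 to 0.703. The highest p came with the lymphocyte marker level as a covariate, where the difference was 0.15. Ranges with single arrays left out were -0.0347 to 0.0378 for the family mean, -0.0252 to 0.041 for the large subunit mean and -0.0422 to 0.071 for the small subunit mean.

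Same-numbered arrays of the 2 groups did not deviate together (r -0.08 to 0.12, with 0 of 7 best with its own number). With the replicate number as a block 0 genes passed, and the distance kept its difference of 0.48, so the pairing changed no call. The variance prior was not varied for the distance, since the exact test has none. The 14 animals, and values below background for 4 genes, limit what differences could be seen.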
